A study of Xenopus laevis with 30 samples.

Results

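The genes described here encode the bone morphogenetic protein (BMP) and transforming growth factor beta (TGF-beta) signaling system, measured by RNA-seq in dissected brain regions of Xenopus laevis tadpoles. Members were the rows of the gene count table whose name begins with bmp, gdf, tgfb or inhb (the ligands), bmpr, acvr or tgfbr (the receptors), smad, or nog, chrd, fst or grem (the extracellular inhibitors), followed by the number or letter that a family member carries. This gave 89 of 49109 rows, comprising 34 ligands, 22 receptors, 18 Smads, 10 extracellular inhibitors and 5 rows matched by name that are none of these. Those 5 were bmp1.S, a metalloprotease that cleaves chordin, bmp2k.S, a protein kinase, tgfb1i1.L, an adaptor protein, and the copies of tgfbrap1, a receptor-associated protein. X. laevis is allotetraploid, so that most genes exist as an L and an S copy on a long and a short chromosome set. The 89 rows stood for 54 gene symbols, of which 35 had both copies in the table and 19 had 1.

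In this system, a dimeric ligand brings together type I and type II receptor kinases at the cell surface. BMPs and several GDFs act mainly through smad1, smad5 and smad9, whereas TGF-betas and activins act mainly through smad2 and smad3. Both branches share Smad4 as a partner, and smad6 and smad7 are feedback inhibitors. Noggin, chordin, gremlin and follistatin bind ligands outside the cell. In the vertebrate neural tube, BMPs and GDFs from the roof plate pattern the dorsal spinal cord, and the same pathways act later on neural progenitors and glia.

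The 30 libraries came from albino tadpoles of both sexes for which the labels name no treatment and no other genotype, staged by the Nieuwkoop and Faber system. Midbrain was sampled at stages 44, 46, 55 and 61 (3 libraries each), at stage 49 (2 libraries) and at stage 66 (1 library). Spinal cord, hindbrain and forebrain were sampled at stage 46 (3 libraries each) and at stage 49 (2 libraries each). The hindbrain pieces held the rhombic lip and the forebrain pieces were subcortical. The labels do not say how many tadpoles went into each sample, and p-values measure the spread between these samples. Levels are given as CPM, read counts scaled by library size with TMM factors over all 30 libraries. They are not scaled by gene length and are compared between samples, not between genes. Passed means a Benjamini-Hochberg adjusted p below 0.05 over all genes in edgeR's quasi-likelihood test, and a stricter cut-off also asked for a log2 fold change above 2 in size.

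The reads counted on genes, which are not all reads sequenced, ran from 1762544 to 11016124 per library. By the genes they fell on, 10 libraries stood apart from the other 20. They were replicate 3 of spinal cord, hindbrain and forebrain at stage 46, and every stage 49 library except midbrain replicate 1. The split was set at 0.5% of reads on 7289 genes. These genes had at most 2 reads over the 12 midbrain libraries of stages 44, 46, 55 and 61. The 10 had 0.541% to 1.87% of their reads on these genes, and the other 20 had 0.00186% to 0.101%. After thinning to 1762544 reads, these 10 had reads on 42900 to 46638 genes, against 27679 to 32655 genes in the other 20. Before thinning they had 1762544 to 4937973 reads counted on genes, against 6357375 to 11016124 reads in the other 20. The 13 members with at most 20 reads summed over the 12 midbrain libraries of stages 44, 46, 55 and 61 drew 102 to 200 reads in each of the 10, against 1 to 33 reads in each of the other 20. All 12 of those midbrain libraries are among the other 20, so that their low values follow from how the genes and members were chosen. The 13 members were both copies of bmp15, gdf9, inhbc.2 and nog4, together with bmp6.S, gdf1.S, gdf5.L, inhbc.1.L and smad6.2.S. What set these libraries apart was not tested. Counts at stage 46 and the midbrain comparison of stages 49 and 46 are given with and without them, whereas the regional comparisons at stage 49 rest on them and have no version without them. As a check of the labels, the summed level of hoxc8 and hoxa9, which mark the trunk spinal cord, was 84.3 to 133 CPM in stage 46 spinal cord and 0 to 6.85 CPM in the other stage 46 regions. The summed level of otx2 and en2, which mark the midbrain and its border, was 158 to 175 CPM in stage 46 midbrain and 1.41 to 52 CPM in the other stage 46 regions. The summed level of egr2 and mafb did not single out the hindbrain, at 56.3 to 72 CPM there and 111 to 227 CPM in the spinal cord at stage 46.

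**Figure D1:**
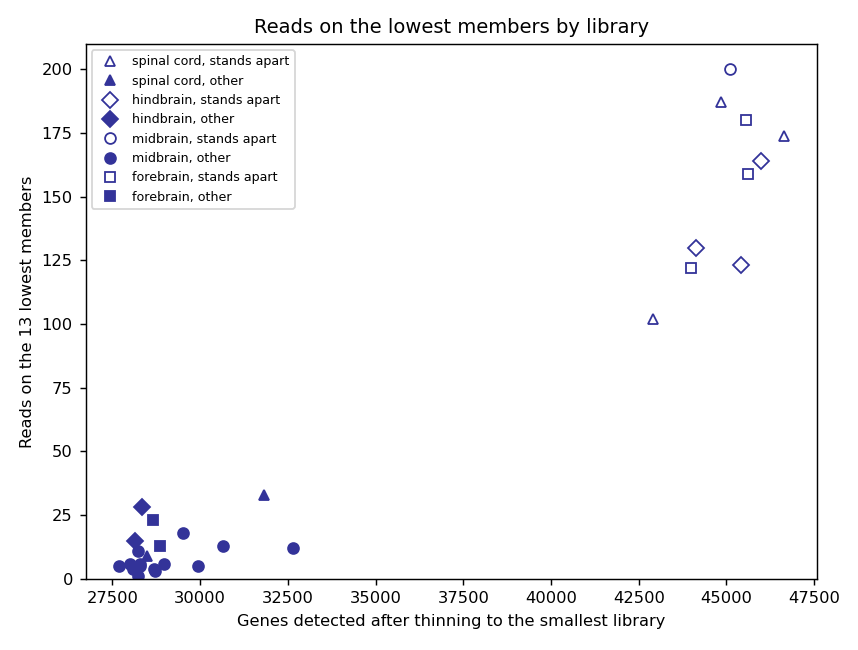
Each point is 1 of the 30 libraries, by the number of genes with a read after thinning to 1762544 reads (x axis) and the reads on the 13 lowest members, not thinned (y axis). The 10 open points, at 102 to 200 reads, lie apart from the 20 filled points, at 1 to 33 reads. The 13 members were chosen for few reads in midbrain libraries that are all among the filled points.

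The midbrain holds the optic tectum, the visual center of the tadpole, and its stages were compared to follow expression into metamorphosis. At stage 61, during metamorphosis, 30 of the 68 members tested had changed relative to the mean of stages 44 and 46, 14 being higher and 16 lower. This was 44.1% of members, against 43.8% of all genes tested (21.8% higher and 22% lower), so that the family was called about as often as the table as a whole. The median log2 fold change was -0.12 for the members and 0.01 for all genes. The other 21 members did not pass the filter on low counts. By the stricter cut-off 6 members were called (2 higher, 4 lower), while 8.26% of all genes were. Among ligands 4 of 18 tested were higher and 5 lower, among receptors 3 of 22 were higher and 6 lower, and among Smads 5 of 17 were higher and 2 lower. Of the 6 inhibitors tested, 0 were higher and 3 lower, and of the 5 other rows 2 were higher and 0 lower. In bulk tissue, fewer cells of a type and less RNA per cell cannot be told apart.

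The activin subunit gene inhbb had the largest rise between stages 55 and 61 among the members that passed. It encodes the beta B subunit, which forms activin B and inhibin B. inhbb.L was at 41.7, 31.9 and 28.7 CPM at stage 61, against 4.33, 2.72 and 4.71 CPM at stage 55. At the younger stages it was at 8.69, 14.2 and 6.99 CPM (stage 44) and 5.67, 4.17 and 9.53 CPM (stage 46), and the stage 66 library was at 10.4 CPM. All stage 61 libraries were therefore above every other midbrain library. The log2 fold change was 3.14 (SE 0.35, edgeR adjusted p = 1.31e-06) against stage 55 and 2.11 (SE 0.26, adjusted p = 1.43e-06) against stages 44 and 46. inhbb.S followed, at 14.5, 17 and 15.3 CPM at stage 61 and 0.371, 1.3 and 3.91 CPM at stage 55. Its log2 fold change was 3.06 (SE 0.51, adjusted p = 0.000188) against stage 55 and 1.76 (SE 0.38, adjusted p = 0.00082) against stages 44 and 46. At stage 55 both copies were below stages 44 and 46, inhbb.L by a log2 fold change of -1.03 (adjusted p = 0.0204) and inhbb.S of -1.3 (adjusted p = 0.0455). The related gene inhba.L, for the beta A subunit, did not pass at stage 61 (log2 fold change 0.41, SE 0.55, adjusted p = 0.58).

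Among other ligands, both copies of bmp3 and tgfb1.S were lower at stage 61. bmp3 encodes an atypical BMP that in mammals opposes other BMPs and activins. bmp3.S was at 1.93, 1.49 and 0.962 CPM at stage 61, while the 6 libraries of stages 44 and 46 lay between 11 and 19.3 CPM (median 14.8 CPM). Stage 55 lay between these levels at 6.68, 3.91 and 2.53 CPM, and the stage 66 library was at 0.539 CPM. The log2 fold change of bmp3.S was -1.78 (SE 0.32, adjusted p = 0.000374) at stage 55 and -3.32 (SE 0.37, adjusted p = 3.4e-07) at stage 61. bmp3.L was lower by less, at 10.8, 11.6 and 9.89 CPM at stage 61 against 19.4 to 23.8 CPM at stages 44 and 46 (log2 fold change -0.98, SE 0.25, adjusted p = 0.00296).

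gdf10.L, a close relative of bmp3, had 1 read in all at stage 61, against 240 reads over stages 44 and 46. Its levels were 0, 0 and 0.137 CPM at stage 61, against 2.66 to 8.36 CPM (median 4.61 CPM) at stages 44 and 46, and at stage 55 they were 0, 1.85 and 0.23 CPM. The ratio of stage 61 to stages 44 and 46, from pooled reads, was 0.00978 (95% exact counting interval 0.000247 to 0.055), which covers counting error only. The edgeR adjusted p was 0.000102 at stage 61 and 0.00935 at stage 55. tgfb1.S, for TGF-beta 1, was at 1.42, 0 and 0.962 CPM at stage 61 and 4.21 to 6.75 CPM at stages 44 and 46, with no overlap (log2 fold change -2.68, SE 0.6, adjusted p = 0.00112). tgfb1.L did not pass, at 3.22, 1.82 and 0.825 CPM at stage 61 and 1.9 to 3.66 CPM at stages 44 and 46. bmp7.1.L, a BMP of the neural tube and roof plate, was also lower (log2 fold change -1.06, SE 0.29, adjusted p = 0.00565), while bmp7.1.S did not pass (-1.35).

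bmp2.S and tgfb2.L were higher at stage 61. bmp2.S was at 17.6, 11.3 and 17.9 CPM at stage 61 and 7.31 to 11.2 CPM at stages 44 and 46 (log2 fold change 0.86, SE 0.23, adjusted p = 0.00402), without overlap, while bmp2.L did not pass (1.12, SE 0.55, adjusted p = 0.108). tgfb2.L, for TGF-beta 2, was at 11.5, 8.61 and 7.83 CPM at stage 61 and 1.39 to 7.17 CPM at stages 44 and 46 (log2 fold change 1.17, SE 0.38, adjusted p = 0.0153).

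No receptor met the stricter cut-off at stage 61. bmpr2.S, a type II BMP receptor, was at 92.7, 118 and 112 CPM at stage 61 and 52.7 to 74.9 CPM at stages 44 and 46 (log2 fold change 0.82, SE 0.14, adjusted p = 6.52e-05). It already passed at stage 55 (log2 fold change 0.51, adjusted p = 0.0118). Among BMP type I receptors, bmpr1a.S and both copies of bmpr1b ran the other way, while bmpr1a.L did not pass (log2 fold change -0.39, SE 0.17, adjusted p = 0.0734). bmpr1a.S had a log2 fold change of -0.82 (SE 0.19, adjusted p = 0.00123) and bmpr1b.L and bmpr1b.S of -1.56 (adjusted p = 0.00336) and -0.81 (adjusted p = 0.0081) at stage 61. acvr2b, a type II receptor for activins and related ligands, was lower in both copies. acvr2b.S was at 23.9, 20.7 and 23.2 CPM at stage 61 and 38.1 to 58 CPM at stages 44 and 46 (log2 fold change -1.14, SE 0.16, adjusted p = 6.89e-06), and acvr2b.L had a log2 fold change of -0.76 (adjusted p = 0.00356). By contrast acvr2a.L, the receptor row with the most reads, was at 86.3, 104 and 116 CPM at stage 61 and 84.1 to 118 CPM at stages 44 and 46, and did not pass (log2 fold change -0.03, SE 0.13). tgfbr3.S, for the co-receptor betaglycan, was at 9.27, 4.14 and 3.85 CPM at stage 61 and 12.2 to 28.8 CPM at stages 44 and 46 (log2 fold change -1.9, SE 0.37, adjusted p = 0.000428). acvr1.L and acvrl1.S, type I receptors, were higher, with log2 fold changes of 0.72 (adjusted p = 0.0105) and 1.73 (adjusted p = 0.0256). The acvrl1.S groups overlapped, and it had only 47 reads over stages 44 and 46.

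**Figure D2:**
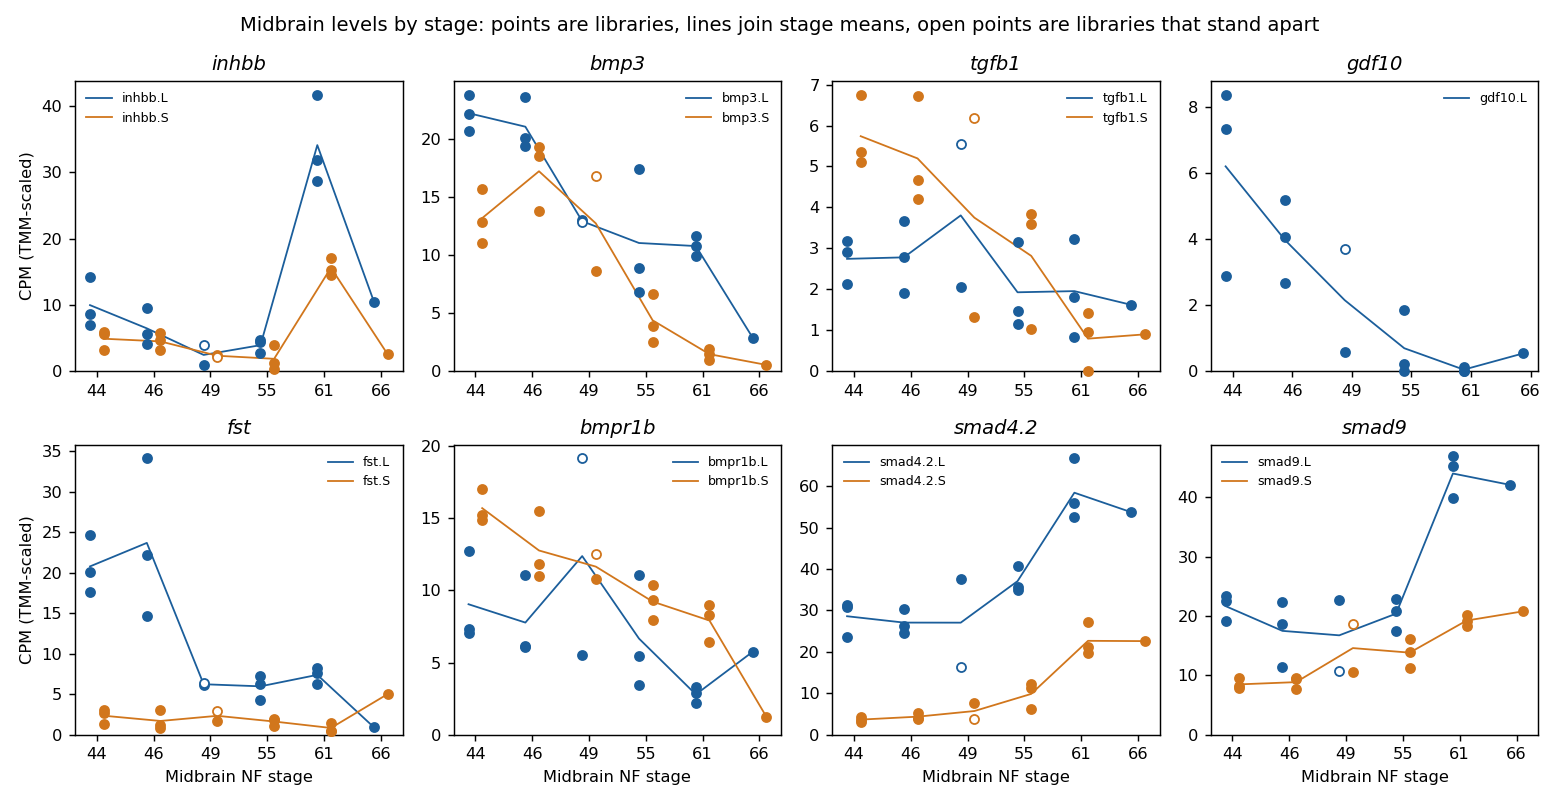
Each panel gives CPM (y axis) by midbrain stage (x axis), with 1 point a library and a line through the stage means, for the L and the S copy of a gene (gdf10 has an L copy only). The open points at stage 49 are the replicate that stands apart, both copies of inhbb peak at stage 61, and both copies of smad4.2 and smad9 are high there while bmp3.S and gdf10.L are near 0.

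The Smads moved apart by gene. smad4.2.S, a copy of a gene for the shared Smad4, was at 19.7, 21.2 and 27.1 CPM at stage 61, against 3.03 to 5.2 CPM (median 3.96 CPM) at stages 44 and 46. Stage 55 was in between at 6.18, 12.2 and 11.2 CPM, and stage 66 was at 22.6 CPM. Its log2 fold change was 1.31 (SE 0.26, adjusted p = 0.000943) at stage 55 and 2.52 (SE 0.25, adjusted p = 6.22e-08) at stage 61. smad4.2.L was at 66.8, 52.6 and 55.8 CPM at stage 61 and 23.6 to 31.4 CPM at stages 44 and 46 (log2 fold change 1.1, SE 0.15, adjusted p = 4.27e-06). The other Smad4 gene did not pass: smad4.1.S, the Smad row with the most reads, was at 45.3, 53.3 and 53 CPM at stage 61 and 54.7 to 68.9 CPM at stages 44 and 46, with no overlap (log2 fold change -0.26, SE 0.15, adjusted p = 0.167).

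Within the BMP branch, smad9 and smad1 moved in opposite directions. smad9.L was at 45.2, 39.9 and 46.9 CPM at stage 61, at 22.9, 17.5 and 20.8 CPM at stage 55, and at 11.5 to 23.4 CPM at stages 44 and 46. Its level at stage 61 was above all earlier libraries (log2 fold change 1.2, SE 0.18, adjusted p = 1.77e-05). smad9.S, at 18.3, 20.2 and 19.2 CPM at stage 61 and 7.76 to 9.53 CPM at stages 44 and 46, had a like change (log2 fold change 1.18, SE 0.2, adjusted p = 8.35e-05) and had passed at stage 55 (log2 fold change 0.69, adjusted p = 0.0202). smad1.S was at 21, 18.4 and 20.5 CPM at stage 61 and 39.2 to 45.1 CPM at stages 44 and 46 (log2 fold change -1.06, SE 0.16, adjusted p = 1.34e-05). smad1.L was lower by a log2 fold change of -0.5 (adjusted p = 0.0188). smad2 and smad3, of the TGF-beta and activin branch, did not pass in either copy, with log2 fold changes from -0.3 to -0.02. Of the feedback inhibitors, smad6.L was higher (log2 fold change 1.34, SE 0.3, adjusted p = 0.000966), while smad7.L passed only at stage 55 (log2 fold change 0.62, adjusted p = 0.0377).

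The inhibitors that passed were all lower. fst.L, for follistatin, which binds activins and some BMPs, was at 8.24, 7.61 and 6.32 CPM at stage 61 and 14.7 to 34.1 CPM at stages 44 and 46. It was already low at stage 55, at 4.33, 7.28 and 6.32 CPM. Its log2 fold change was -1.87 (SE 0.27, adjusted p = 5.44e-05) at stage 55 and -1.55 (SE 0.27, adjusted p = 9.28e-05) at stage 61. fst.S did not pass at stage 61 (log2 fold change -1.2, SE 0.66, adjusted p = 0.145). chrd.L, for the BMP binder chordin, was at 0, 0.496 and 1.51 CPM at stage 61 and 1.34 to 6.64 CPM at stages 44 and 46, with overlap (log2 fold change -2.42, SE 0.71, adjusted p = 0.00888). nog2.L, of the noggin family, was lower by a log2 fold change of -0.62 (adjusted p = 0.0477), also with overlap. Of the rows matched by name, tgfb1i1.L (log2 fold change 0.74, SE 0.22, adjusted p = 0.00853) and bmp2k.S (0.64, SE 0.19, adjusted p = 0.00942) were higher, while bmp1.S did not pass (-0.04, SE 0.12).

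**Figure D3:**
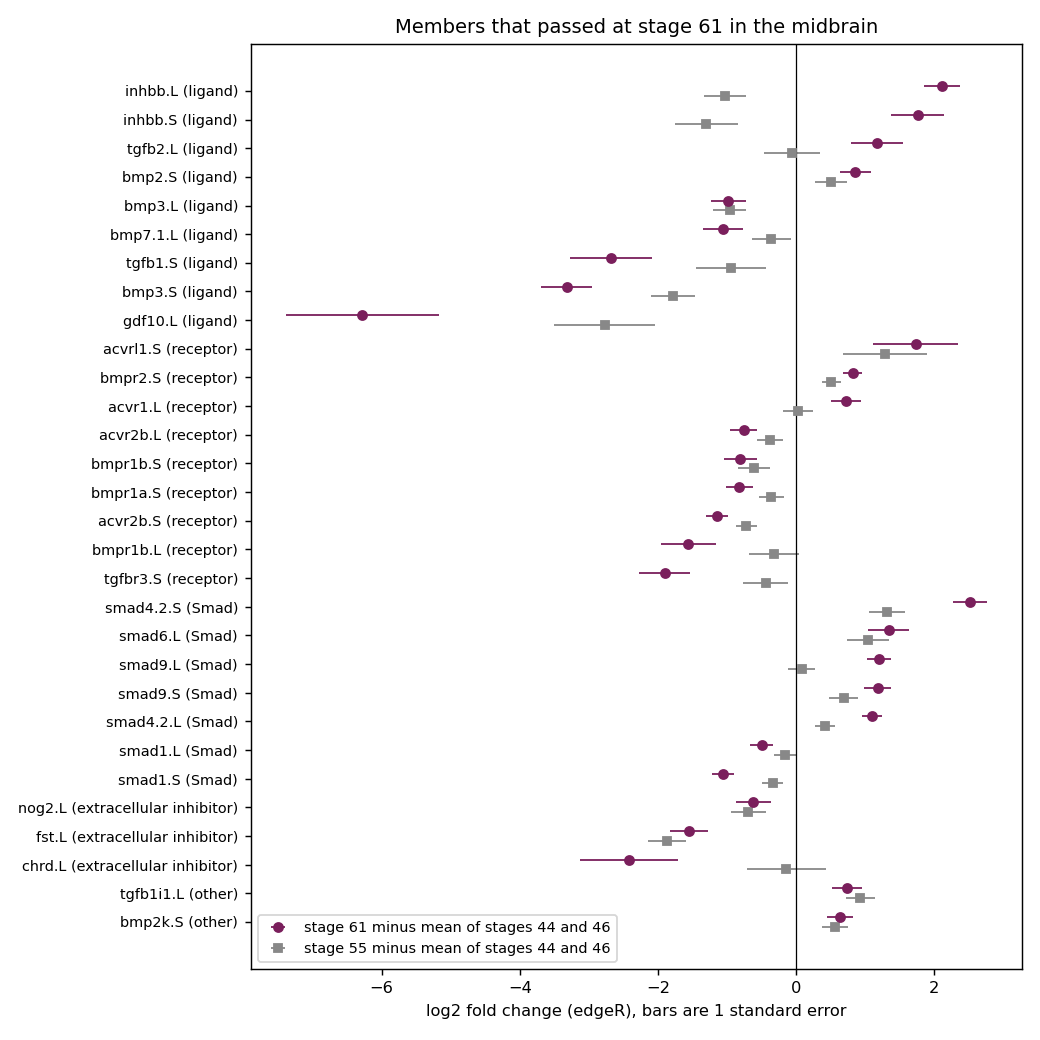
The 30 members that passed at stage 61 are listed by role, with the log2 fold change against the mean of midbrain stages 44 and 46 (x axis) at stage 61 (circles) and stage 55 (squares), and bars of 1 standard error. The inhbb copies lie on opposite sides of 0 at the 2 stages, and the fitted value of gdf10.L rests on 1 read at stage 61.

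Stage 55 held fewer changes than stage 61. Relative to stages 44 and 46, 16 of 68 members passed (8 higher, 8 lower), or 23.5% against 23% of all genes tested (12.4% higher and 10.6% lower). All 5 ligand rows that passed were lower, and they held both copies of bmp3 and of inhbb. All 5 Smad rows that passed were higher, and they held both copies of smad4.2. Without midbrain stage 44 replicate 2 the count was 10 of the same 16. The share of all genes in that fit is not given here, so that the drop is not read as a result about the members. Between stages 61 and 55, 9 of 68 members passed (5 higher, 4 lower), or 13.2% against 19.2% of all genes. Beside inhbb, these included smad9.L (log2 fold change 1.12, SE 0.22, adjusted p = 0.000886) and smad4.2.S (1.21, SE 0.29, adjusted p = 0.00519), both higher at stage 61, and bmp3.S (-1.55, SE 0.41, adjusted p = 0.0098) and tgfbr3.S (-1.46, SE 0.41, adjusted p = 0.0162), both lower. chrd.L passed narrowly (adjusted p = 0.0414), and the call was lost when any of 8 libraries was left out, namely stage 44 replicate 2, all of stage 46, stage 55 replicates 1 and 3, and stage 61 replicates 1 and 2. Between stages 46 and 44, 0 of 68 members passed and 5 had an unadjusted p below 0.05 in edgeR (0.00375% of all genes passed).

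Other gene groups of the midbrain moved over the same stages. The summed level of 7 myelin rows was 2220 to 3310 CPM at stage 61 and 46.9 to 64.8 CPM at stages 44 and 46. The summed level of 7 radial glia rows was 2840 to 3730 CPM at stage 61 and 8940 to 11400 CPM at stages 44 and 46. The rows did not move as one, since 4 of the 7 were lower and 2 were higher. The 15 fibroblast and meninges rows summed to 120 to 149 CPM at stage 61 and 205 to 271 CPM at stages 44 and 46, with 1 row at 0 and 7 lower. They stood at 247 to 537 CPM at stage 55, and 10 of 15 were lower at stage 61 than at stage 55. The 7 microglia rows summed to 1.39 to 6.13 CPM at stages 44 and 46, to 31.8 to 58.5 CPM at stage 55 and to 19.1 to 39.2 CPM at stage 61, with 4 higher at each of the later stages. Of 11 muscle rows 6 were lower at stage 61 than at stages 44 and 46, and of 6 cartilage rows 3 were. Their part in the changes of the members was not tested.

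The L and S copies of a gene did not always change by the same factor. No pair had copies that passed in opposite directions in any of the 13 comparisons. At stage 61 both copies were higher for inhbb, smad4.2 and smad9, and both were lower for acvr2b, bmp3, bmpr1b and smad1. The ratio of L to S copy was tested with limma over all pairs in the table, and it changed at stage 61 for 4 of the 27 member pairs tested, or 14.8% against 14.3% of all pairs. These were bmp3 (change in the log2 ratio 2.2, SE 0.32, limma adjusted p = 0.00182), tgfb1 (2.26, SE 0.61, adjusted p = 0.032), smad1 (0.53, SE 0.15, adjusted p = 0.0413) and smad4.2 (-1.36, SE 0.29, adjusted p = 0.0115). For bmp3 the log2 ratio was 2.73 at stage 61, against 0.53 at stages 44 and 46. In smad4.2 the S copy gained on the L copy, the log2 ratio being 1.36 at stage 61 and 2.73 at stages 44 and 46. The count was 2 when any replicate of stage 44, or replicate 1 or 2 of stage 46, was left out, and the share of all pairs in those fits is not given here. Reads that map to both copies could be split between them, and how the counting treated such reads is not stated, so that values per copy are uncertain where the copies are near identical.

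Pathway genes outside the family names were also followed at stage 61. From a list of 74 rows for targets, modulators and other ligands, 57 were tested, and 15 were higher and 20 lower. This was 61.4% of the list, against 43.8% of all genes (21.8% higher and 22% lower). Whether this share differs from that of all genes or of the members was not tested. id3, a direct BMP target in many tissues, was lower in both copies, id3.L by a log2 fold change of -1.94 (SE 0.22, adjusted p = 3.6e-07) and id3.S of -1.7 (SE 0.22, adjusted p = 2.13e-06). The related rows id2.L, id2.S and id4.S, and both copies of bambi, did not pass. id4.S was at 842, 827 and 800 CPM at stage 61 and 820 to 1010 CPM at stages 44 and 46. msx2.L, a BMP-responsive homeobox gene, was at 0.515, 0.165 and 0.687 CPM at stage 61 and 1.85 to 9.85 CPM at stages 44 and 46 (log2 fold change -3.51, SE 0.72, adjusted p = 0.0005). Both copies of tgif1, a co-repressor that acts with Smad2 and Smad3, were lower, tgif1.L by -2.6 (SE 0.24, adjusted p = 2.53e-08) and tgif1.S by -2.52 (SE 0.23, adjusted p = 2.06e-08). On the other side, htra1.L and htra1.S, for a secreted protease that can act on TGF-beta family proteins, were higher by 3.04 (SE 0.42, adjusted p = 5.36e-06) and 2.99 (SE 0.39, adjusted p = 2.67e-06). twsg1.L and twsg1.S, for the BMP modulator twisted gastrulation, were higher by 1.93 (adjusted p = 6.05e-05) and 1.67 (adjusted p = 2.07e-05). The related row twsg2.L went the other way (-6.37, SE 0.53, edgeR adjusted p = 4.62e-09). It was at 0.386, 0 and 0 CPM at stage 61 and 10.8 to 16.4 CPM at stages 44 and 46. The other copy, twsg2.S, was not among the rows that passed. It was at 10.6, 9.1 and 3.85 CPM at stage 61 and 4.18 to 13.4 CPM at stages 44 and 46. Both copies of tgif2, related to tgif1, were also lower, tgif2.L by -2.59 (SE 0.44) and tgif2.S by -8.39 (SE 1.02). tgif2.S was at 0 CPM in every stage 61 library.

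Stage 49 was compared with stage 46 in the midbrain, with 2 libraries of which replicate 2 stands apart. Of 72 members tested, 10 passed (6 higher, 4 lower), or 13.9% against 17.7% of all genes. Where a stage 46 library was left out, the share of all genes is not given here, and those counts are not read as results about the members. Without replicate 2 the count was 2 (2.61% of all genes), without replicate 1 it was 31 (37.8%), and without stage 46 replicate 1, 2 or 3 it was 3, 4 and 4. fst.L passed with both stage 49 libraries and with either alone. It was at 6.14 and 6.33 CPM at stage 49, against 34.1, 14.7 and 22.2 CPM at stage 46 (log2 fold change -1.77, SE 0.35, adjusted p = 0.00235), and the log2 fold change was -1.93 (adjusted p = 0.0259) without replicate 2 and -1.74 (adjusted p = 0.00538) without replicate 1. By the stricter cut-off 5 members were called, all higher at stage 49, and 7.09% of all genes were. One of them, acvrl1.S, was at 2.19 CPM in replicate 1 and 7.41 CPM in replicate 2 at stage 49, against 0.253 to 0.347 CPM at stage 46. The others were acvr1c.L, bmp2.L, chrd.2.L and gdf3.S, and none of the 5 passed without replicate 2. Of the marker lists, 3 of 10 blood vessel endothelium rows, 4 of 7 microglia rows, 5 of 7 myelin rows and 2 of 11 muscle rows were higher at stage 49 than at stage 46, and 5 of 7 radial glia rows, 3 of 6 cartilage rows and 1 of 15 fibroblast and meninges rows were lower. Their part in these calls was not tested.

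Across regions at stage 46, the spinal cord differed most. Relative to the mean of forebrain, midbrain and hindbrain, 13 of 84 members tested passed there, 11 higher and 2 lower. This was 15.5% of members, against 12.4% of all genes tested (6.72% higher and 5.67% lower). The count was 8 without spinal cord replicate 2, all among the 13 (6.38% of all genes), and it was 19, with all 13 among them, in the 9 libraries that do not stand apart (26.5% of all genes). The median log2 fold change was 0.24 for the members and 0.14 for all genes. Among the ligands 5 of 29 tested were higher and 1 lower, among 22 receptors 1 was higher and 1 lower, and 2 of 18 Smads and 2 of 10 inhibitors were higher.

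The lowest p-values in the spinal cord were those of fst.L and gdf10.L. fst.L was at 119, 77.4 and 59.9 CPM in the spinal cord, against 4.01 to 34.1 CPM (median 15.6 CPM) in the 9 libraries of the brain regions. The groups did not overlap (log2 fold change 2.58, SE 0.22, adjusted p = 3.32e-07). gdf10.L was at 42.8, 63.8 and 27.4 CPM in the spinal cord and 2.66 to 25.9 CPM (median 4.42 CPM) in the brain regions (log2 fold change 2.78, SE 0.24, adjusted p = 3.72e-07). Here the hindbrain came next, at 12.2, 25.9 and 10.7 CPM. All 13 kept their calls in the 9 libraries, for example fst.L at a log2 fold change of 2.65 (adjusted p = 3.48e-08) and gdf10.L at 2.92 (adjusted p = 2.92e-08).

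Further ligands were also higher. gdf7.S, which in the mouse is made by the roof plate, was at 11.1, 8.87 and 6.06 CPM in the spinal cord and 0 to 2.85 CPM in the brain regions (log2 fold change 2.88, SE 0.71, adjusted p = 0.0112). It did not pass without spinal cord replicate 1 (adjusted p = 0.103) or without replicate 2. bmp7.1.L was at 37.8, 33.4 and 34.8 CPM in the spinal cord and 15.4 to 25.5 CPM in the brain regions (log2 fold change 0.85, SE 0.16, adjusted p = 0.00139), with no overlap. The other copy, bmp7.1.S, did not pass (log2 fold change 0). bmp2.S was at 23, 29.1 and 17.3 CPM in the spinal cord and 7.31 to 14.5 CPM in the brain regions (log2 fold change 1.25, SE 0.22, adjusted p = 0.000603). gdf11.1.L, a GDF that acts on axial patterning, was higher by a log2 fold change of 1.03 (SE 0.33, adjusted p = 0.0481). bmp3.S alone among the ligands was lower, at 4.84, 7.25 and 7.85 CPM in the spinal cord and 9.9 to 25.1 CPM in the brain regions (log2 fold change -1.32, SE 0.29, adjusted p = 0.00505).

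nog.L, for the BMP binder noggin, was at 11.1, 23.5 and 13 CPM in the spinal cord and 4.25 to 12.1 CPM in the brain regions (log2 fold change 1.09, SE 0.26, adjusted p = 0.00922), and forebrain libraries, at 9.92 to 12.1 CPM, reached into its range. smad9.S was at 26.1, 33.4 and 20.6 CPM in the spinal cord and 5.69 to 21.9 CPM in the brain regions (log2 fold change 1.44, SE 0.22, adjusted p = 0.000238), and smad9.L had a log2 fold change of 1.01 (SE 0.26, adjusted p = 0.016). tgfbr2.S, the type II TGF-beta receptor, was higher (1.06, SE 0.28, adjusted p = 0.0192), and tgfbr3.S was lower (-0.89, SE 0.23, adjusted p = 0.0175). bmp1.S, which cleaves chordin, was at 188, 216 and 118 CPM in the spinal cord and 48.4 to 124 CPM in the brain regions (log2 fold change 1.01, SE 0.2, adjusted p = 0.00195). The copies of other symbols did not pass, for example fst.S (log2 fold change 1.54, SE 0.6, adjusted p = 0.12) and nog.S (1, SE 0.37, adjusted p = 0.0964). The L to S ratio changed for 0 of 32 member pairs in limma, with 4 at an unadjusted p below 0.05, against 2.77% of all pairs that passed.

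**Figure D4:**
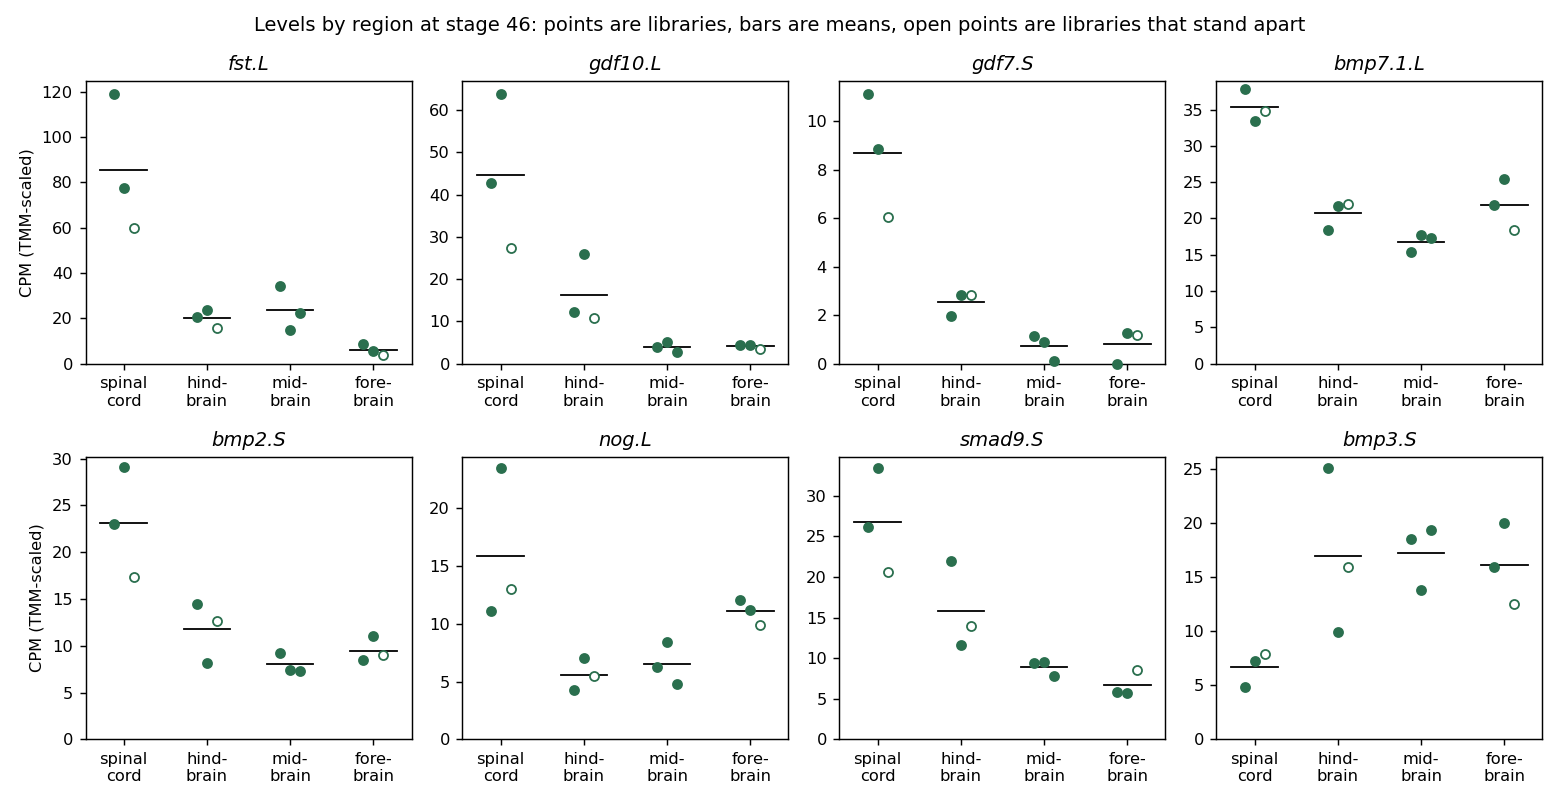
Each panel gives CPM (y axis) of a member in the 3 libraries of each region at stage 46 (x axis), with a bar at the mean, and open points for the libraries that stand apart. fst.L, gdf10.L, gdf7.S, bmp7.1.L and bmp2.S are above all brain libraries in each spinal cord library, and bmp3.S is below all of them.

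Of the pathway genes outside the family names, 71 were tested in the spinal cord at stage 46, and 13 were higher and 3 lower. This was 22.5% of the list, against 12.4% of all genes, and the difference between the shares was not tested. They included id3.L (log2 fold change 1.23, SE 0.2, adjusted p = 0.000335) and id3.S (1.09, SE 0.19, adjusted p = 0.000572), bmper.L, for a secreted BMP binder (2.76, SE 0.62, adjusted p = 0.0159), and tll1.S, for a protease related to bmp1 (1.3, SE 0.17, adjusted p = 4.33e-05). sostdc1.L, for another BMP binder, was lower (-1.87, SE 0.35, adjusted p = 0.00122), as was rgmb.S, for a BMP co-receptor (-1.51, SE 0.22, adjusted p = 0.000124). The related rows id2.L, id2.S and id4.S, and both copies of msx1 and msx2, did not pass there.

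Marker lists also differed in the spinal cord at stage 46, both those chosen for tissue around it and that of myelin. The cartilage list included sox9 and the fibroblast and meninges list included zic1. Whether these lists are limited to tissue around the cord was not tested. The summed level of 6 cartilage rows, led by col2a1.L at 1520, 1730 and 1030 CPM, was 1910 to 2460 CPM in stage 46 spinal cord and 249 to 511 CPM in the other stage 46 regions, with 4 rows higher and 0 at 0. The 11 skeletal muscle rows summed to 247 to 611 CPM in the spinal cord and 14 to 352 CPM in the other regions, with 7 higher. The 15 fibroblast and meninges rows summed to 474 to 739 CPM in the spinal cord and 215 to 669 CPM in the other regions, with 5 higher and 1 lower. The 7 myelin rows summed to 1390 to 2660 CPM in the spinal cord and 46.9 to 541 CPM in the other regions. Their part in the levels of the members was not tested.

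The other regions held few calls at stage 46. In the forebrain 4 of 84 members passed, all lower, or 4.76% against 5.65% of all genes (3.12% lower). fst.L was at 8.65, 5.69 and 4.01 CPM in the forebrain and 14.7 to 119 CPM (median 23.9 CPM) in the other regions (log2 fold change -2.44, SE 0.3, adjusted p = 3.79e-05), without overlap. gdf10.L (-1.73, SE 0.32, adjusted p = 0.00185), smad9.L (-1.44, SE 0.31, adjusted p = 0.00711) and smad9.S (-1.16, SE 0.27, adjusted p = 0.0119) were the others, and these contrasts share their libraries with that of the spinal cord. Neither smad9 copy passed without forebrain replicate 1, and smad9.S did not pass without forebrain replicate 2. The count was 2 without forebrain replicate 1 (2.98% of all genes), 8 without hindbrain replicate 3 (6.96%), and 10 in the 9 libraries that do not stand apart (14.2%). With the replicate number as a block, 7 members passed in the forebrain (8.33% of all genes), 5 in the midbrain (10.4%), 1 in the hindbrain (2.12%), and 17 in the spinal cord (18.7%). Among the 10 that passed in the 9 libraries that do not stand apart were higher forebrain levels of bmp4.L (log2 fold change 2.08, SE 0.42, adjusted p = 0.00144), acvr1c.L (5.11, SE 1.05, adjusted p = 0.00167) and bmp6.L (3.93, SE 1.13, adjusted p = 0.022). In all 12 libraries bmp4.L missed the threshold (1.53, SE 0.5, adjusted p = 0.0982). acvr1c.L, for the type I receptor known as ALK7, was at 2.42, 4.04 and 4.25 CPM in the forebrain. In the other regions, it was at 4.26 CPM in hindbrain replicate 3 and 1.57 CPM in spinal cord replicate 3, which stand apart, and at 0 to 0.776 CPM in the remaining 7 libraries. bmp6.L had 11 and 17 reads in forebrain replicates 1 and 2 and 18 reads in hindbrain replicate 3. In the 9 libraries only the forebrain had more than 10 reads of acvr1c.L or bmp6.L. Both rows met the filter on low counts by the group in which they were high, so that their calls are not taken as support for a difference.

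In the midbrain 3 of 84 members passed at stage 46 (1 higher, 2 lower), or 3.57% against 4.26% of all genes. gdf10.L was lower (log2 fold change -1.93, SE 0.31, adjusted p = 0.00113) and kept its call in each fit with a library left out. The low level was not particular to the midbrain. By the same kind of contrast gdf10.L was also lower in the forebrain (-1.73) and higher in the spinal cord (2.78), and these contrasts share their libraries. The calls for bmp7.1.L (-0.67, SE 0.17, adjusted p = 0.0344) and smad4.2.L (0.6, SE 0.17, adjusted p = 0.0486) were both lost, leaving a count of 1, when forebrain replicate 1 or 2 or any midbrain replicate was left out. Over all single libraries left out, the bmp7.1.L call was lost in 8 fits and the smad4.2.L call in 10. The share of all genes in those fits is not given here. In the 9 libraries 8 members passed (10.7% of all genes), among them bmpr1b.S (1.68, SE 0.32, adjusted p = 0.00106) and inhbb.S (2.2, SE 0.53, adjusted p = 0.00868), both higher in midbrain. In the hindbrain 0 of 84 passed in edgeR, against 1.11% of all genes, with 5 at an unadjusted p below 0.05. In DESeq2 1 passed, for which the share of all genes is not given here. In the 9 libraries 2 passed (5.58% of all genes), gdf10.L (0.99, SE 0.28, adjusted p = 0.0439) and acvrl1.L (2.89, SE 0.76, adjusted p = 0.0264), both higher in hindbrain.

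At stage 49, no member passed in any region with all 8 libraries. In edgeR 0 of 86 members passed in the spinal cord, with 6 at an unadjusted p below 0.05 (0.281% of all genes passed). In the hindbrain it was 0 with 1 at an unadjusted p below 0.05 (0.00842%), in the midbrain 0 with 10 (0.191%), and in the forebrain 0 with 2 (0.374%). The percentages are of all genes that passed by adjusted p. The share of all genes at an unadjusted p below 0.05 is not given, so that the unadjusted counts have no such comparison. The counts changed without midbrain replicate 1, the stage 49 library that does not stand apart. Without it, 3 members passed in the spinal cord (2.34% of all genes), and all were higher there. These were fst.L (log2 fold change 1.62, SE 0.3, adjusted p = 0.00014), gdf10.L (1.52, SE 0.35, adjusted p = 0.00426) and bmp7.1.L (1, SE 0.25, adjusted p = 0.0135). Without midbrain replicate 2, which leaves midbrain with that library alone, 26 members passed in the spinal cord, 11 in the hindbrain, 53 in the midbrain and 14 in the forebrain, against 30.5%, 15.2%, 63.4% and 14.8% of all genes.

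In each spinal cord library of both stages, fst.L, gdf10.L and bmp7.1.L were above all brain libraries of that stage, and so was gdf11.1.L. They were singled out after their values were seen. Members without overlap, in either direction, were 14 of 84 tested at stage 46 and 13 of 86 at stage 49. The share of all genes without overlap was not computed, so that these counts are not read as results about the members. At stage 49, fst.L was at 14 and 15.7 CPM in the spinal cord and 3.13 to 6.33 CPM in the brain regions. gdf10.L was at 8.51 and 10.3 CPM in the spinal cord and 0.585 to 4.88 CPM in the brain regions. bmp7.1.L was at 17.3 and 21.7 CPM in the spinal cord and 4.53 to 16.1 CPM in the brain regions. With all 8 libraries none of the 3 passed, the adjusted p being 0.0987 for fst.L, 0.442 for gdf10.L and 0.224 for bmp7.1.L. In stage 49 spinal cord the cartilage rows summed to 192 to 281 CPM, against 158 to 192 CPM in the brain regions, the fibroblast and meninges rows to 262 to 446 CPM against 179 to 219 CPM, and the muscle rows to 96.1 to 237 CPM against 80 to 133 CPM. The myelin rows summed to 2180 to 4240 CPM in the spinal cord, against 84.1 to 2330 CPM in the brain regions, with 5 of 7 higher. Their part in the levels of the members at stage 49 was not tested.

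Of the 13 members that passed in the spinal cord at stage 46, 11 had the same sign at stage 49, 4 had an unadjusted p below 0.05 there, and 12 had a smaller log2 fold change in size. The 13 were chosen on their stage 46 values. Of the 4 members that passed in the forebrain at stage 46, also chosen so, 4 had the same sign at stage 49. None of them, 0 of 4, had an unadjusted p below 0.05 there, and 4 had a smaller log2 fold change in size. For fst.L the log2 fold change was 1.63 at stage 49 (SE 0.32, adjusted p = 0.0987) and 2.58 at stage 46. For smad9.S it was 0.22 at stage 49 (SE 0.29) and 1.44 at stage 46, and for bmp2.S 0.01 (SE 0.33) at stage 49 and 1.25 at stage 46. The difference between stages was tested in 1 fit of the 20 libraries of both stages, over 88 members and 4 regions, and 0 of 352 tests passed in edgeR, with 25 at an unadjusted p below 0.05. In the spinal cord 1.54% of all genes passed this test, and in the forebrain, midbrain and hindbrain 0.00705%, 0.0258% and 0.00235% did. The lowest adjusted p in the spinal cord were those of bmp2.S (difference -1.51, SE 0.38, adjusted p = 0.0512) and smad9.S (-1.47, SE 0.38, adjusted p = 0.0578). The lowest unadjusted p of all 352 tests was that of fst.L in the forebrain (difference 2.26, SE 0.42, edgeR adjusted p = 0.0754). Its forebrain log2 fold change was -2.44 at stage 46 and -0.23 (SE 0.36) at stage 49. No member passed this test of the difference. Every spinal cord and forebrain library of stage 49 stands apart, whereas 2 of 3 in each of these regions at stage 46 do not.

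**Figure D5:**
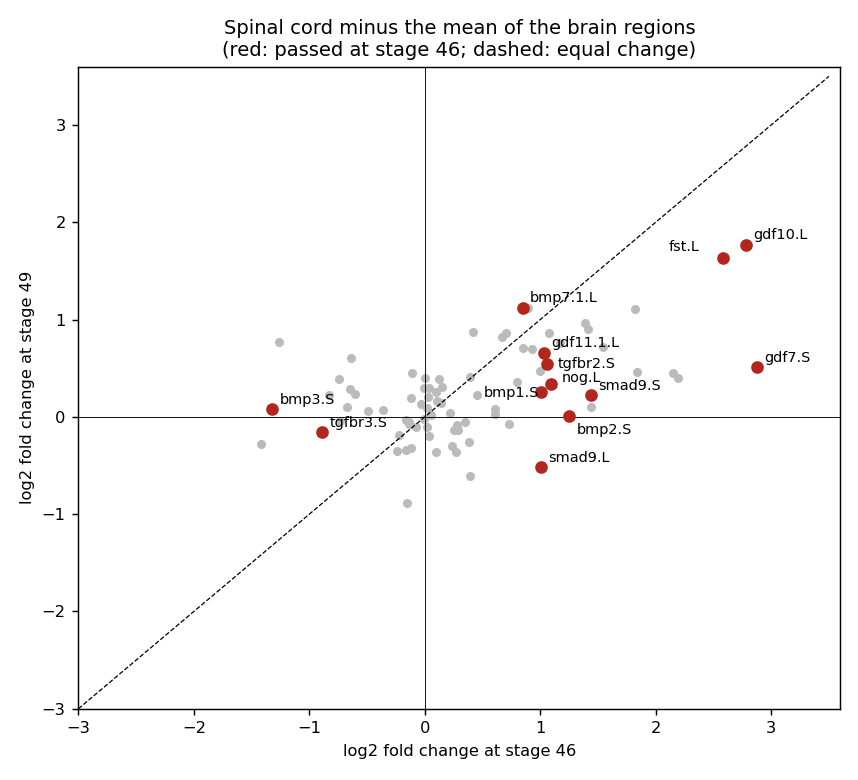
Each point is a member tested at both stages, by the log2 fold change of spinal cord against the mean of the brain regions at stage 46 (x axis) and at stage 49 (y axis). The 13 members that passed at stage 46 are named in red, and fst.L, gdf10.L and bmp7.1.L lie highest at stage 49 among them.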

How the data were processed

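RNA was measured by sequencing in 30 bulk samples of dissected tadpole brain regions. Per the labels and the study's methods, the RNA was amplified before 100-base single-end sequencing, and the raw gene counts deposited by the authors were made with STAR 2.5.2a and HTSeq 0.11.1 on the X. laevis v9.2 genome. How strand and reads with several positions were treated is not stated, and the authors' normalized tables were not used. Groups came from the sample labels.

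Counts were fitted with edgeR 4.0.16 in R 4.3.3 (TMM, filterByExpr with a minimum count of 10 and total of 15, robust quasi-likelihood test, Benjamini-Hochberg over all genes). One fit each held the midbrain stages, the midbrain with stage 49, stage 46 and stage 49, so that p-values use a spread shared by the groups. L to S ratios were tested with limma 3.58.1 (prior count 2). Printed CPM use 1 scaling over 30 libraries, whereas each fit used its own. Standard errors were derived from the log2 fold change and its F value. The ratio of a gene with few reads has an exact 95% interval, and depth limits low members. In simulated counts, the test for spinal cord at stage 46 recovered 62 of 100 genes changed by a log2 fold change of 3 and 16 of 100 changed by 1. For midbrain stage 61 it recovered 97 and 42 of 100. Among genes simulated without a change, 5 were called for spinal cord and 13 for midbrain stage 61. The simulated counts did not include libraries that stand apart.

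Members named with values were those past the stricter cut-off, the 6 with the lowest p among those that passed in each comparison, their other copies, and the row with the most reads in each role. Others named were chosen after their values were seen. The members and lists were chosen with earlier results of these data known. Alternatives were DESeq2 1.42.0, other scaling, no filter, a replicate block, all 30 samples in 1 fit, and each library left out. One marker check of the region labels is not reported here.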

Additional observations from a re-analysis of the deposited data

How the results depend on the processing

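The number of members that passed was recomputed under other settings, and no named member reversed its direction. Of 75 alternatives of a count other than leaving out a library, 20 moved it by more than 1.5 times, and of 239 alternatives of a named member 21 lost the call. The cause of each move was not tested. Where the share of all genes is printed above, it also moved with the setting. The counts below are given without that share and are therefore not read as results about the members. With all 30 samples in 1 fit, 7 members passed at midbrain stage 55 against stages 44 and 46, 5 at stage 61 against 55, 2 at stage 49 against 46, 2 in the midbrain at stage 49 and 1 in the spinal cord at stage 49. With DESeq2, 14 passed at stage 61 against 55, and at stage 46 it was 22 in the spinal cord, 15 in the midbrain, 7 in the forebrain and 1 in the hindbrain. With no filter on low counts, 1 passed at stage 46 against 44 and 1 in the stage 46 midbrain. In the 9 stage 46 libraries that do not stand apart, 10 passed in the forebrain, 8 in the midbrain and 2 in the hindbrain.

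Leaving out each library in turn gave 10 to 17 at stage 55, 28 to 32 at stage 61, 7 to 11 at stage 61 against 55 and 2 to 31 at stage 49 against 46. At stage 46 it gave 8 to 15 in the spinal cord, 1 to 4 in the midbrain, 2 to 8 in the forebrain and 0 in the hindbrain. At stage 49 it gave 0 to 26 in the spinal cord, 0 to 53 in the midbrain, 0 to 11 in the hindbrain and 0 to 14 in the forebrain, and where 1 library was left in a group it was assumed to vary like the others. The L to S ratio changed for 2 to 4 pairs at stage 61.

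Deviations from the group means in samples with the same replicate number correlated at -0.06 to 0.04 in the midbrain fit, -0.09 to 0.18 with stage 49 added and -0.53 to 0.36 at stage 49. At stage 46 the correlations were 0.43 to 0.85 in the 9 pairs among forebrain, hindbrain and spinal cord and -0.02 to 0.03 in the 9 pairs with midbrain. Replicate 3 of those 3 regions stands apart, and over replicates 1 and 2 alone, a check chosen after seeing the data, the correlations among the 3 regions were -0.01 to 0.05. The labels do not say what a number shares. With the replicate block, 4 members passed at stage 49 against 46, and at stage 46 it was 7 in the forebrain, 5 in the midbrain and 1 in the hindbrain. The L to S ratio changed for 2 pairs at stage 61 with the block.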
